A study of Mus musculus with 12 samples.

Results

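The 27 genes described here make, sense or export cholesterol and related lipids, and all 27 were found by symbol among the 55401 genes of the deposited tables. They fall into 13 enzymes of sterol synthesis, 3 genes of the SREBP control circuit, 3 fatty acid genes, both liver X receptors, 5 targets of those receptors and the sterol esterifying enzyme Soat1. RNA came from CD45+/CD11b+/Ly6G- cells, that is myeloid cells other than neutrophils, sorted from the hind paws of adult mice 4 h after an intraplantar injection. The mice carried either the floxed Fabp5 allele alone (FABP5Flox, here Flox) or that allele with LysM-Cre (FABP5Flox/LysM-Cre, here cKO), and received saline or 1% carrageenan, a seaweed polysaccharide that provokes acute inflammatory pain. All 4 groups carried the floxed allele, and no group carried the Cre alone, so the effect of losing Fabp5 and that of the Cre cannot be told apart. LysM-Cre is driven from Lyz2, the lysozyme gene of macrophages, monocytes and neutrophils. Each group held 3 libraries, each from a pool of 3 or 4 mice (Flox pools 1-3, 4-7 and 8-10, and cKO pools 1-4, 5-8 and 9-12, by the numbers in the sample titles).

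Cells adjust sterol synthesis through SREBP-2, the product of Srebf2, which is held in the endoplasmic reticulum by INSIG proteins while sterol is plentiful and otherwise travels to the nucleus and switches on the enzyme genes. SREBP-1, from Srebf1, mainly serves fatty acid genes such as Fasn and Scd2. Liver X receptors (LXR, from Nr1h2 and Nr1h3) sense oxidised sterols and raise genes that move lipid out of the cell, among them the transporters Abca1 and Abcg1 and the apolipoprotein Apoe. In macrophages these circuits handle lipid taken up from dying cells, and both are known to be reset by inflammatory signals. FABP5 is a small carrier of fatty acids in the cytoplasm.

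The letters of the known control motifs were looked for in the promoter of each gene, from 250 bases before to 50 bases after the start site (RefSeq, mouse build GRCm38.p6, 22 of 27 genes with an entry). The sterol regulatory element was searched as TCACNCCAC, the E-box as CACGTG, the NF-Y box as CCAAT and the LXR element (DR4) as the letters AGGTCA repeated with 4 bases between them, each on both strands. The sterol element was present in 2 of 22 genes (Hmgcs1 and Acsl1), against 1.44% of all 27025 genes with a promoter entry. The E-box was present in 4 (Sc5d, Dhcr7, Insig1 and Abca1), against 8.09%, and the CCAAT letters in 18, against 41.1%. The LXR element was present in 0 of 22, against 0.0148%, and such elements are known to lie outside promoters as well. Shown are Hmgcs1, the enzyme gene with the sterol element, and the 3 genes whose values the treatment comparisons below turn on. Capitals mark the motif letters on either strand (ATTGG is the CCAAT box read on the other strand), and no marked motif overlaps another. The windows lie at chr13:119690101-119690400 (Hmgcs1, plus strand), chr5:28071162-28071461 (Insig1, plus strand), chr13:45389492-45389791 (Mylip, plus strand) and chr7:19699139-19699438 (Apoe, minus strand).
Hmgcs1: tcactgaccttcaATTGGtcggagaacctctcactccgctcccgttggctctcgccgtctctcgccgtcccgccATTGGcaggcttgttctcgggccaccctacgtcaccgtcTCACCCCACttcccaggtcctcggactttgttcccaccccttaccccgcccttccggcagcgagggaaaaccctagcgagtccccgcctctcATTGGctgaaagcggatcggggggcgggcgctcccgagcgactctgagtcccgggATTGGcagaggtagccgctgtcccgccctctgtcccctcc
Insig1: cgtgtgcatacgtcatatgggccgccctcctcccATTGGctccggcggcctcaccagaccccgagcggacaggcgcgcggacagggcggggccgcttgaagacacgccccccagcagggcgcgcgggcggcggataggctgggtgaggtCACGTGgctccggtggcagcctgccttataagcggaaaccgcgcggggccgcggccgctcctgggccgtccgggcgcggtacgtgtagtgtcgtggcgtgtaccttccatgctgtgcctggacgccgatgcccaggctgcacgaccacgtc
Mylip: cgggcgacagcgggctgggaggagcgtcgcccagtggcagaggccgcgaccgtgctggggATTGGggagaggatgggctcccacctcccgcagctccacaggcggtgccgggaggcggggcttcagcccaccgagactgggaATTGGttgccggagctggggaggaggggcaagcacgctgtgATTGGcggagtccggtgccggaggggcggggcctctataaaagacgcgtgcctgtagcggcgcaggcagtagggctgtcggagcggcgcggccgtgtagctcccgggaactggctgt
Apoe: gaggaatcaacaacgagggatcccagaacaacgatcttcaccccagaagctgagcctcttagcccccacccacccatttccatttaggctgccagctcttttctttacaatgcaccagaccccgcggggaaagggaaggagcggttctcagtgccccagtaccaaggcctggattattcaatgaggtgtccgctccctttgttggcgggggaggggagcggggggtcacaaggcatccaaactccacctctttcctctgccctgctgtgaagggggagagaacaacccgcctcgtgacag
In the printed windows Hmgcs1 has the sterol element and 4 CCAAT boxes, Insig1 an E-box and 1 CCAAT box, Mylip 3 CCAAT boxes, and Apoe none of the searched letters.

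Libraries differed widely in depth, and depth moved with genotype. Reads on genes ranged from 111925 in the Flox saline pool 1-3 to 2987015 in the cKO saline pool 5-8, and the cKO libraries held 4.99 times the reads of the Flox libraries (ratio of geometric means). A limit of 3 reads stood for 16.4 normalized counts in the former library and for 0.803 in the latter. The Flox saline pool 1-3 stood apart from all other libraries, at -188.6 on the first principal component, where the others lay between -7.36 and 32.1. It held 329 reads of the 27 genes in all, and 9 of them had none (Mvk, Mvd, Idi1, Sqle, Lss, Cyp51, Sc5d, Dhcr7 and Nr1h3). The cKO carrageenan pool 9-12 lay at 42.2 on the second component, away from the other pools of its group at -17.9 and -8.93. Lss and Dhcr7 were without reads in the Flox carrageenan pool 4-7, and Dhcr7 in the cKO carrageenan pool 9-12. In the remaining 9 libraries every one of the 27 genes had reads.

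Fabp5, the floxed gene, had 5.46, 36.5 and 23.9 normalized counts in Flox saline and 6.36, 4.29 and 11.8 in cKO saline. With carrageenan it had 43.1, 94.9 and 32.8 in Flox and 6.01, 11.1 and 22.3 in cKO. The genotypes overlapped in saline, through the Flox pool 1-3 with 1 read of Fabp5, and did not overlap in carrageenan (log2 fold change -2.06 ± 0.53 (SE), limma adjusted p = 0.497). Lyz2, whose gene carries the Cre, had 2906, 5174 and 5463 in Flox saline, 3093, 2858 and 2865 in cKO saline, 5691, 4441 and 5695 in Flox carrageenan and 1884, 2093 and 3390 in cKO carrageenan. Which exons the Cre removes is not given here, so a 3' library may read a part of Fabp5 that remains.

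**Figure D1:**
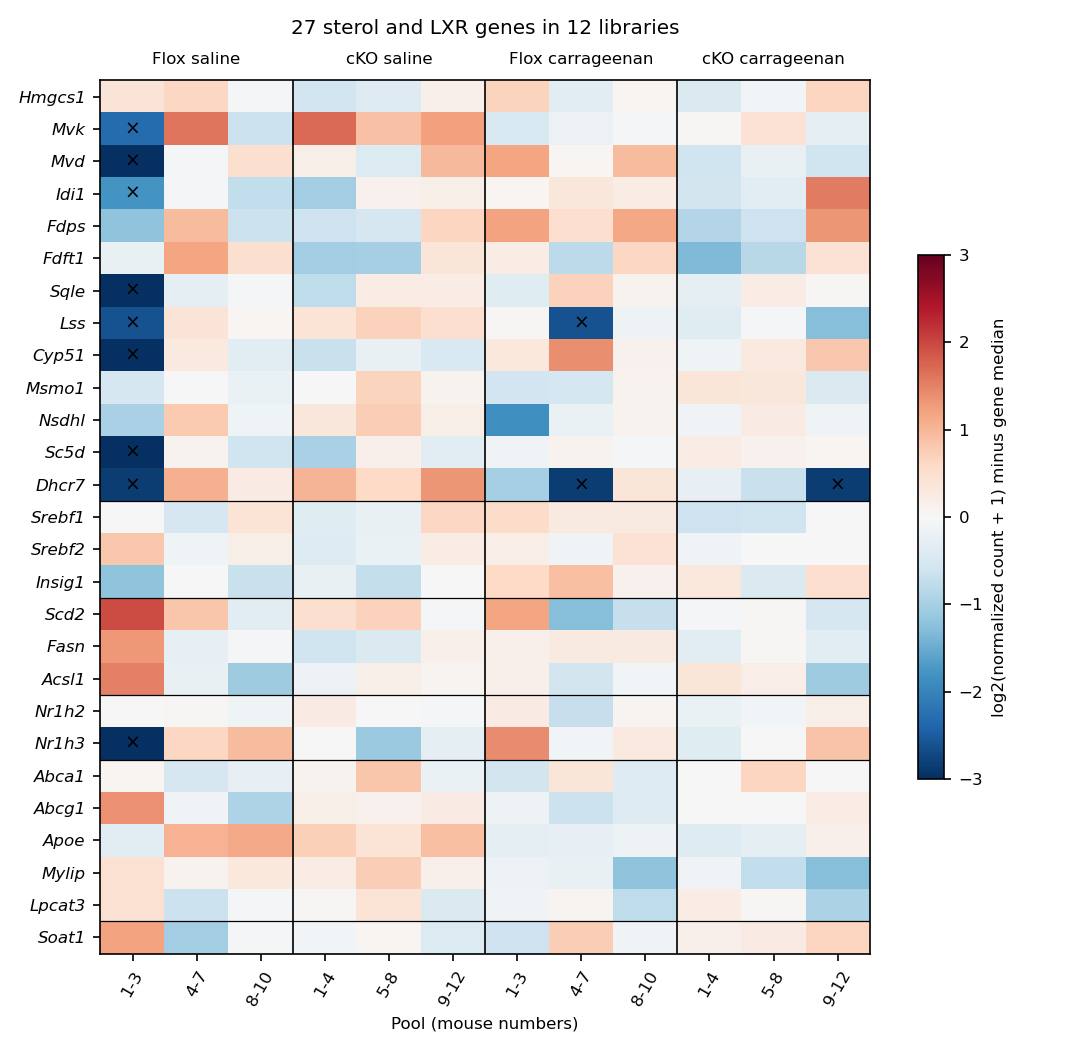
Each of the 27 genes (rows, grouped by role) in each of the 12 libraries (columns), as log2(normalized count + 1) on the common scale minus the gene's median over the 12 libraries. Crosses mark libraries with no read of the gene, 9 of them in the Flox saline pool 1-3. Apoe is higher in 5 of 6 saline libraries, and no block of genes separates the genotypes.

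Apoe was lower after carrageenan, and with all 12 libraries on the common scale it was the only one of the 27 genes that limma called, in the comparison averaged over genotypes. On a per-million scale limma called Mylip as well. Apoe encodes apolipoprotein E, the lipid carrier that macrophages secrete (GRCm38 chromosome 7, 19696109 to 19699188, minus strand). Its normalized counts, with all libraries on a common scale, were 577, 1484 and 1588 in Flox saline and 1184, 966 and 1344 in cKO saline. After carrageenan they were 592, 609 and 645 in Flox and 555, 599 and 809 in cKO. The cKO groups did not overlap, and in Flox the saline pool 1-3 lay below all 3 carrageenan pools while the other 2 lay far above them. Group means were 1216 ± 556 and 615 ± 27.1 in Flox and 1165 ± 189.8 and 654 ± 136 in cKO (SD, n = 3).

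Averaged over both genotypes, a comparison added after the data were seen, Apoe fell to 0.558-fold (log2 fold change -0.84 ± 0.24 (SE), limma adjusted p = 0.0305). In that comparison 1 of 26 genes tested here was called, against 11.6% of all 10240 genes, and 4.83% of all genes were called lower. Within each genotype 0 of 26 genes were called, against 7.17% of all genes in Flox and 2.65% in cKO. For Apoe the log2 fold change was -0.85 ± 0.33 (SE, limma adjusted p = 0.143) in Flox and -0.84 ± 0.33 (limma adjusted p = 0.306) in cKO. Without the Flox saline pool 1-3 Apoe alone was called in both, against 7.52% and 5.16% of all genes, at -1.32 ± 0.25 (SE, limma adjusted p = 0.00532) and -0.84 ± 0.22 (limma adjusted p = 0.0398). The averaged call held in 3 of 12 fits that each left out 1 library, those without the Flox saline pool 1-3, the cKO saline pool 5-8 or the cKO carrageenan pool 9-12. In the other 9 fits the adjusted p reached at most 0.0769, and over all 12 the log2 fold change stayed between -1.08 and -0.71.

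Markers of resident macrophages, which are known to express Apoe strongly, were also lower after carrageenan, and markers of monocytes rose. All 17 resident macrophage markers had lower estimates after carrageenan, and 14 in Flox and 8 in cKO fell past the threshold. Their summed level went from between 11065 and 15156 to between 3465 and 4554 normalized counts in Flox. In cKO it went from between 15264 and 18383 to between 4624 and 8384. All 10 monocyte markers had higher estimates in each genotype, and 7 in each rose past the threshold. Their sum lay between 1062 and 1894 in Flox saline, 6104 and 7967 in Flox carrageenan, 833 and 1496 in cKO saline, and 2554 and 8810 in cKO carrageenan. Of 11 neutrophil markers 7 were tested, of which 5 in Flox and 4 in cKO rose past the threshold. Their sum lay between 35.2 and 76.6 normalized counts in Flox saline, 398 and 730 in Flox carrageenan, 19.9 and 37.3 in cKO saline, and 143 and 704 in cKO carrageenan. Among them Ly6g, the neutrophil antigen sorted against, had 4 reads in all 12 libraries together, and Camp had 0. Of 8 fibroblast markers 7 in Flox and 8 in cKO had higher estimates, and 2 in Flox and 0 in cKO rose past the threshold. Their sum went from between 49.9 and 573 to between 721 and 1224 in Flox, and from between 263 and 666 to between 696 and 1050 in cKO. The adipocyte list, a type that also makes Apoe, had at most 8 reads in a group, with 0 of Plin1 and Lep. In sorted pools, fewer cells of a type and less RNA per cell cannot be told apart, and the part of the marker shift in the fall of Apoe was not tested.

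None of the other 4 targets of the liver X receptors was called, and their averaged log2 fold changes ranged from -0.95 to 0.00. Mylip, which encodes the ligase IDOL that marks the LDL receptor for degradation (chromosome 13, 45389742 to 45412022), came nearest. Its normalized counts were 33.3, 25.8 and 30.2 in Flox saline and 28.2, 40.5 and 26.6 in cKO saline, and 21.0, 20.4 and 9.88 in Flox carrageenan and 22.2, 13.9 and 9.26 in cKO carrageenan. All 6 carrageenan libraries lay below all 6 saline libraries, which 7.74% of all genes tested did in either direction, from 6 to 159 reads per library. The averaged log2 fold change was -0.95 ± 0.33 (SE, limma adjusted p = 0.0796), and edgeR and DESeq2 on the recovered reads gave adjusted p of 0.0461 and 0.0227, where they called 14.9% and 18.1% of all genes. Abca1, the transporter that loads cholesterol onto apolipoprotein A-I, had means of 110 ± 22.1 and 116 ± 41.4 in Flox and 159 ± 61.0 and 152 ± 42.5 in cKO, saline and carrageenan (SD, n = 3). Its averaged log2 fold change was 0.00, with a 95% interval from -0.49 to 0.50, which leaves out a change of 2-fold. For Abcg1, the transporter toward HDL, the interval was -1.01 to 0.40, and for Lpcat3, which builds polyunsaturated phospholipids, -0.84 to 0.42.

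Of the receptors themselves, Nr1h2 was bounded within 2-fold and Nr1h3 had few reads. Nr1h2 (LXR beta) had means of 75.8 ± 5.07 in Flox saline, 73.8 ± 23.2 in Flox carrageenan, 81.5 ± 9.56 in cKO saline and 75.8 ± 11.0 in cKO carrageenan (SD, n = 3). Its interval lay within 2-fold in every treatment and genotype comparison, in the difference of effects as well. Nr1h3 (LXR alpha) had 133 reads over all 12 libraries, with a range of 0 to 25, and its averaged interval ran from -0.58 to 2.24. Its averaged estimate was 0.83 ± 0.66 (SE), and 0.19 ± 0.42 (limma adjusted p = 0.799) without the Flox saline pool 1-3, where it had no read. In Flox its estimate went from 1.03 ± 0.93 (SE) to -0.25 ± 0.62 (limma adjusted p = 0.850) without that pool. Between genotypes in saline Nr1h3 went from 0.04 ± 1.15 (SE) to -1.26 ± 0.54 (limma adjusted p = 0.345). Soat1, which esterifies cholesterol for storage in droplets, had an averaged estimate of 0.23, between -0.49 and 0.94.

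**Figure D2:**
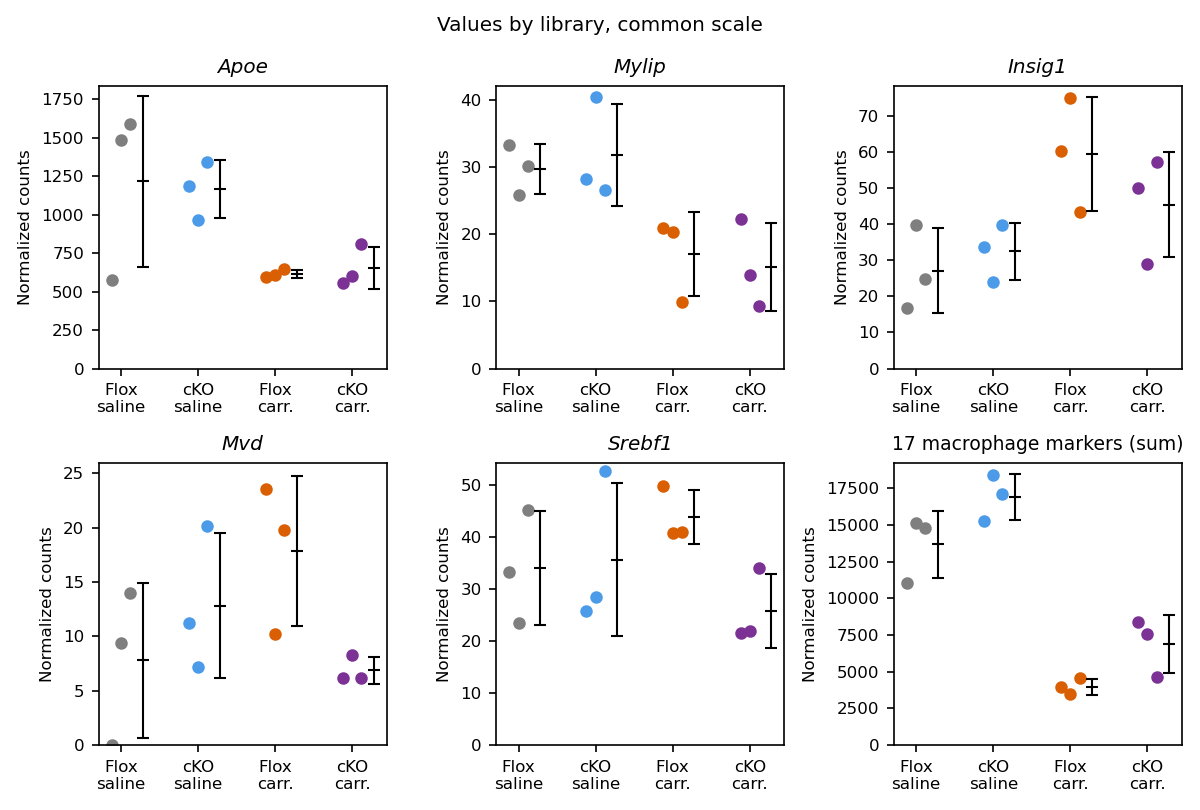
Normalized counts on the common scale in each library (points, 3 per group) with the mean and SD beside them, for Apoe, Mylip, Insig1, Mvd and Srebf1, and for the sum of 17 resident macrophage markers. Means of Apoe, Mylip and the marker sum are lower in both carrageenan groups, with the Flox saline pool 1-3 low for Apoe. After carrageenan the cKO points of Mvd and Srebf1 lie below the Flox points, without passing the test.

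Insig1, which retains the SREBPs in the endoplasmic reticulum and is itself an SREBP target, had the smallest unadjusted p of the 27 genes for carrageenan in Flox (chromosome 5, 28071363 to 28078662). It had 16.6, 39.9 and 24.8 normalized counts in Flox saline and 60.3, 74.8 and 43.3 in Flox carrageenan, so that these groups did not overlap, as for 23.0% of all genes tested. In cKO it had 33.7, 24.0 and 39.6 in saline and 49.9, 29.0 and 57.1 after carrageenan, with overlap. The log2 fold change was 1.16 ± 0.41 (SE, limma adjusted p = 0.103) in Flox, 0.45 ± 0.41 (limma adjusted p = 0.923) in cKO and 0.80 ± 0.29 (limma adjusted p = 0.0959) on average. The difference between the genotypes in this response was -0.73 ± 0.58 (SE, limma adjusted p = 0.967). Of the transcription factors, Srebf2 lay within 2-fold of saline after carrageenan, at -0.02 with a 95% interval from -0.44 to 0.40 on average, and Srebf1 at -0.01 with an interval from -0.60 to 0.59.

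The 13 sterol synthesis enzymes showed no common shift with carrageenan: of 12 tested, 6 had positive and 6 negative averaged estimates, with a median of -0.03 against 0.02 for all genes. Together they took 0.0474 to 0.0494% of gene reads in the Flox and 0.0380 to 0.0490% in the cKO libraries after carrageenan. In saline the share was 0.0394 to 0.0530% in cKO and 0.0410 and 0.0591% in the Flox pools 8-10 and 4-7. In the Flox saline pool 1-3 it was 0.0250%, from 28 reads, with an exact 95% binomial interval of 0.0166 to 0.0362% that covers counting error only. Apart from that library the ranges of the 4 groups overlapped. Markers of keratinocytes and sebaceous cells, which also make sterols, summed to 327 to 657 normalized counts in Flox saline, 537 to 739 in Flox carrageenan, 769 to 1571 in cKO saline and 662 to 1073 in cKO carrageenan, and their part in the enzyme values was not tested.

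**Figure D3:**
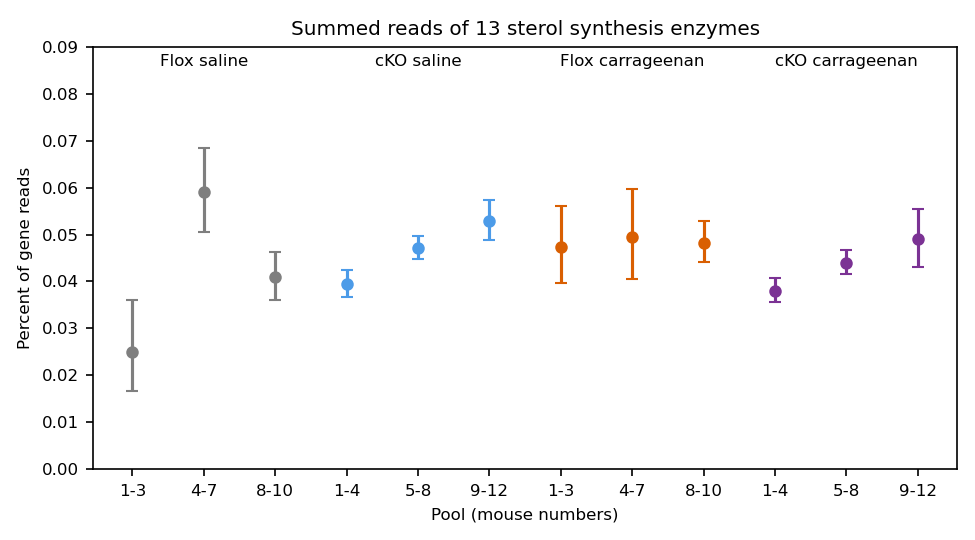
Summed reads of the 13 sterol synthesis enzymes as a percent of all gene reads in each library (points), with exact 95% binomial intervals that cover counting error only. All libraries lie between 0.0380 and 0.0591% except the Flox saline pool 1-3, at 0.0250%.

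The large positive estimates of Cyp51, Sqle, Mvd and Sc5d in Flox rested largely on that same library. Cyp51, the lanosterol demethylase, had 0, 56.3 and 36.7 normalized counts in Flox saline and 57.6, 122 and 50.2 in Flox carrageenan, with 28.2, 39.2 and 33.1 in cKO saline and 41.7, 56.3 and 80.3 in cKO carrageenan. It was singled out after its values were seen. The cKO groups did not overlap, and the Flox groups did. Its log2 fold change in Flox was 2.47 ± 1.05 (SE, limma adjusted p = 0.171), and 0.63 ± 0.40 (limma adjusted p = 0.371) without the pool 1-3. Sqle (squalene epoxidase), Mvd and Sc5d moved in the same way, from 2.00, 1.73 and 1.77 to 0.30, 0.52 and 0.23. For Cyp51 the averaged estimate was 1.62 ± 0.74 (SE, limma adjusted p = 0.196), and 0.70 ± 0.27 (limma adjusted p = 0.0970) without that pool.

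Dhcr7, the last enzyme on the way to cholesterol, was the enzyme with the lowest averaged estimate and was also singled out after its values were seen. It had 0, 14.1 and 7.55 normalized counts in Flox saline, 13.6, 9.94 and 17.2 in cKO saline, 2.62, 0 and 8.36 in Flox carrageenan and 5.13, 3.56 and 0 in cKO carrageenan. These values came from at most 40 reads per library. The cKO groups did not overlap, like those of 7 of 26 genes here and of 29.6% of all genes. The averaged log2 fold change was -1.44 ± 0.76 (SE, limma adjusted p = 0.272), and -2.02 ± 0.63 (limma adjusted p = 0.0417) without the Flox saline pool 1-3, where 15.3% of all genes were called. The fit without that pool gave Dhcr7 the smallest adjusted p of all settings. Without that pool and the cKO carrageenan pool with no read of Dhcr7, it was -1.62 ± 0.57 (SE, limma adjusted p = 0.0787). The estimate lay between -2.02 and -1.01 over the fits that each left out 1 library (limma adjusted p up to 0.503).

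Hmgcs1 and Msmo1, the enzymes with the most reads, had treatment intervals within 2-fold on average. Hmgcs1, which makes HMG-CoA, had means of 81.1 ± 18.6 and 73.1 ± 26.3 in Flox and 53.9 ± 15.1 and 69.2 ± 27.8 in cKO, saline and carrageenan (SD, n = 3), and an averaged 95% interval from -0.48 to 0.61. Msmo1, a sterol methyl oxidase, had 68.1 ± 12.1 and 64.0 ± 18.3 in Flox and 96.3 ± 25.6 and 86.9 ± 24.5 in cKO, with an interval from -0.62 to 0.35. Idi1, the isopentenyl diphosphate isomerase, had 42 reads in all and did not pass the filter of 5 normalized counts in 3 libraries. Mvk, Fdps, Fdft1, Lss and Nsdhl had averaged estimates between -0.64 and 0.68 with intervals that all reached past 2-fold. Of the fatty acid genes, Fasn (fatty acid synthase) had an interval from -0.66 to 0.63, Acsl1 (acyl-CoA synthetase) from -1.09 to 0.67 and Scd2 (stearoyl-CoA desaturase) from -1.81 to 0.19.

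**Figure D4:**
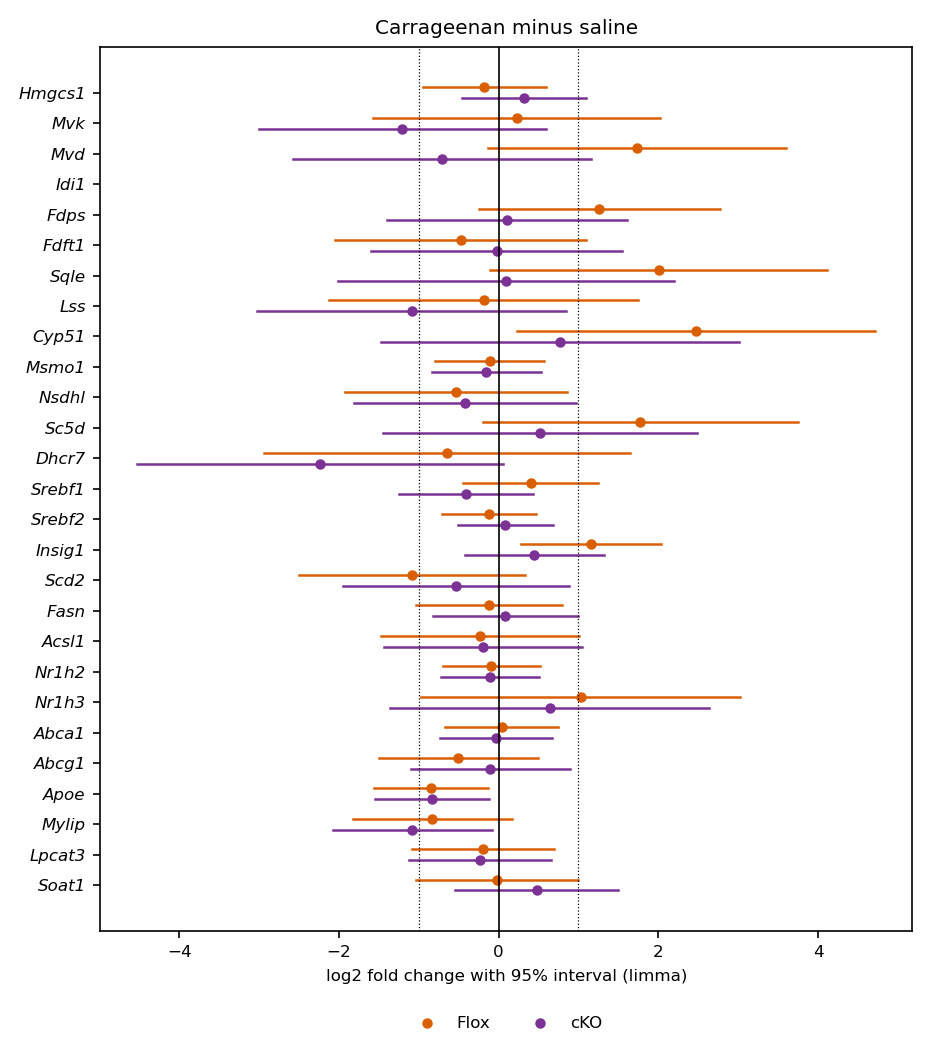
Log2 fold change of carrageenan over saline with 95% limma intervals for 26 genes in Flox (orange) and cKO (purple). Dotted lines mark 2-fold, and Idi1 is not plotted because it did not pass the filter. Apoe lies at -0.85 and -0.84. Cyp51 and Nr1h3, without reads in the Flox saline pool 1-3, are among the genes with wide intervals.

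Between genotypes none of the 27 genes was called. In saline 0 of 26 tested genes passed, against 0% of all 9371 genes, and 0 had an unadjusted limma p under 0.05, against 5.42% of all genes. On the recovered reads edgeR and DESeq2 called 0 of the 26 as well, against 0% and 0.245% of all genes. In carrageenan 0 of 23 passed, against 0% of all 9151 genes, 2 had an unadjusted p under 0.05, against 9.80%, and edgeR and DESeq2 called 0, against 0% and 0.109%. These were Mvd and Srebf1, and their groups did not overlap, like those of Abcg1 and Fasn (4 of 23 genes, against 15.1% of all genes).

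Mvd, the mevalonate diphosphate decarboxylase (chromosome 8, 122433601 to 122443422), had 22.8, 9.82 and 19.0 normalized counts in Flox carrageenan and 6.01, 8.00 and 5.95 in cKO carrageenan, on the deposited scale. In saline it had 0, 9.72 and 14.8 in Flox and 11.7, 7.50 and 21.1 in cKO, where the groups overlapped. The Flox pool 4-7 after carrageenan held 3 reads of Mvd, close to all 3 cKO pools. The log2 fold change in carrageenan was -1.18 ± 0.51 (SE, limma adjusted p = 0.497). The estimate was 1.27 ± 1.08 (SE, limma adjusted p = 0.696) in saline, and 0.04 ± 0.48 (limma adjusted p = 0.983) without the Flox pool 1-3. The difference between these effects was -2.46 ± 1.25 (SE, limma adjusted p = 0.967), and -1.22 ± 0.74 (limma adjusted p = 0.999) without that pool.

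Srebf1 (chromosome 11, 60199089 to 60222581) had 48.2, 39.3 and 39.4 normalized counts in Flox carrageenan and 21.0, 21.1 and 32.7 in cKO carrageenan. In saline it had 32.8, 24.3 and 47.8 in Flox and 26.9, 30.0 and 55.3 in cKO. All cKO pools lay below all Flox pools after carrageenan, and the genotypes were interspersed in saline. The log2 fold change in carrageenan was -0.76 ± 0.33 (SE, limma adjusted p = 0.497), and -0.96 ± 0.30 (limma adjusted p = 0.117) without the cKO pool 9-12. In that fit 420 of 8908 genes were called, and it gave Srebf1 the smallest adjusted p of all settings. Over the fits that each left out 1 library the estimate lay between -0.96 and -0.66 (limma adjusted p up to 0.971). In carrageenan the fatty acid genes had estimates of -0.42 ± 0.31 (SE) for Fasn, 0.10 ± 0.62 for Scd2 and 0.00 for Acsl1. In the same libraries 13 of 16 resident macrophage markers tested had positive and all 10 monocyte markers negative genotype estimates, with medians of 0.83 and -0.70 and 0 called. Of all genes 56.5% had positive estimates there. The part of these markers in the values of Mvd and Srebf1 was not tested.

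For some genes the data bounded the genotype difference. In carrageenan the 95% interval lay within 2-fold for 7 of 23 genes (Apoe, Lpcat3, Sqle, Srebf2, Sc5d, Nr1h2 and Hmgcs1), against 22.5% of all genes, and in saline for 3 of 26 (Lpcat3, Mylip and Nr1h2), against 14.8%. Apoe had 1260.4 ± 603 in Flox saline and 1219.6 ± 199 in cKO saline, and 593 ± 23.6 and 633 ± 128 after carrageenan (deposited scale, SD, n = 3). Its genotype estimate in saline was 0.09 with an interval from -0.89 to 1.07, and -0.41 ± 0.28 (SE, limma adjusted p = 0.571) without the Flox pool 1-3. In carrageenan it was 0.08 with an interval from -0.42 to 0.57. Fdps, the farnesyl diphosphate synthase, had an interval from -2.29 to 0.29 in carrageenan, and an estimate of -1.69 ± 0.43 (SE, limma adjusted p = 0.0703) without the cKO pool 9-12. Over the fits that each left out 1 library its estimate lay between -1.69 and -0.60 (limma adjusted p up to 0.971). Fdps was singled out after its values were seen. Abca1 had positive estimates in both treatments, 0.51 ± 0.32 (SE, limma adjusted p = 0.683) and 0.42 ± 0.31 (limma adjusted p = 0.607). Averaged over both treatments, a comparison added after the data were seen, 0 of 26 genes were called, against 0.00976% of all 10243 genes, and 13 had intervals within 2-fold, against 31.3%. The smallest p there belonged to Msmo1 (0.47 ± 0.23 (SE), limma adjusted p = 0.344) and Abca1 (0.46 ± 0.23, limma adjusted p = 0.353).

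In saline, 10 of 12 enzyme genes had positive genotype estimates, against 65.1% of all genes, with a median of 1.28 against 0.25 for all genes. Without the Flox pool 1-3 the estimates of Sqle and Cyp51 went from 1.79 and 1.43 to 0.07 and -0.44, and that of Sc5d from 1.43 to -0.13. In carrageenan 3 of 9 were positive, against 56.5% of all genes, with a median of -0.14 against 0.09 for all genes.

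**Figure D5:**
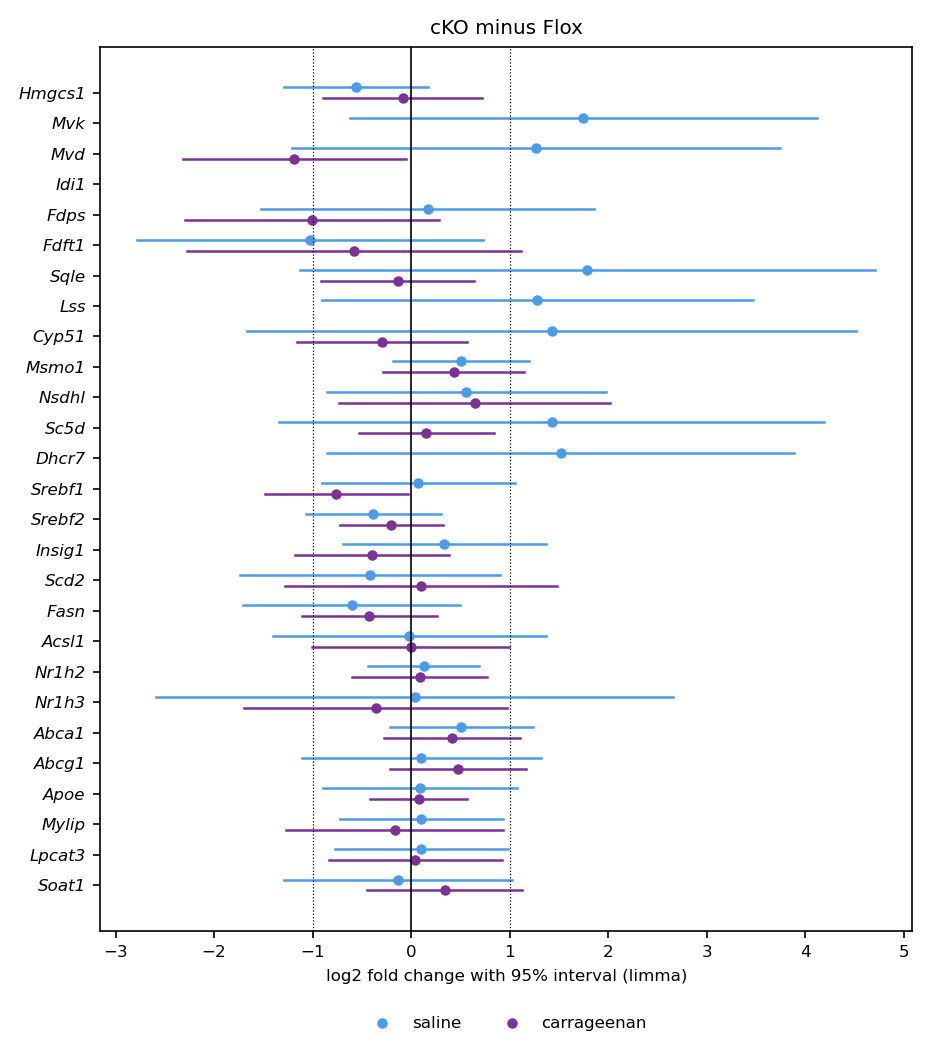
Estimated cKO over Flox ratio (log2) and its 95% limma interval in saline (blue) and carrageenan (purple) on the deposited scale. Dotted lines mark 2-fold, and genes without an interval did not pass the filter in that treatment. The widest saline intervals belong to genes without reads in the Flox saline pool 1-3, and the carrageenan intervals of Mvd and Srebf1 lie just below 0.

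The response to carrageenan was not shown to differ between genotypes for any of the 27 genes. The difference of effects had 0 of 26 genes called, against 0% of all 10243 genes, 0 with an unadjusted limma p under 0.05, against 2.38%, and 0 called by edgeR and DESeq2. The 95% interval lay within 2-fold for Nr1h2 alone, against 4.27% of all genes, and for the other 25 genes it reached past 2-fold. For Apoe the difference was -0.01, with an interval from -1.07 to 1.04. It was 0.49 ± 0.33 (SE, limma adjusted p = 0.999) without the Flox saline pool 1-3, and 0.33 ± 0.29 (limma adjusted p = 0.912) without the cKO carrageenan pool 9-12 as well. For Mylip it was -0.27, with an interval from -1.67 to 1.13.

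Of 50 further genes of these pathways, in 4 lists, the clearest change with carrageenan was the fall of Lpl, which was called in both genotypes. In Flox 3 of 42 tested genes were called, against 7.17% of all genes, and in cKO 1 of 42, against 2.65%. Averaged over genotypes 9 of 42 tested genes were called, 4 higher and 5 lower, against 11.6% of all genes. Among them were 0 of 8 further sterol enzymes and 0 of 10 further fatty acid genes. The calls were 2 of 10 genes of sterol sensing and uptake (1 higher, 1 lower) and 7 of 14 further LXR partners and targets (3 higher, 4 lower). Lpl, the lipoprotein lipase, fell in Flox (-2.02 ± 0.34 (SE), limma adjusted p = 0.00328), in cKO (-1.54 ± 0.34, limma adjusted p = 0.0267) and on average (-1.78 ± 0.24, limma adjusted p = 2.48e-04). Lipa, the lysosomal acid lipase that frees cholesterol from its esters, fell in Flox (-1.61 ± 0.37 (SE), limma adjusted p = 0.0175) and on average (-1.39 ± 0.26, limma adjusted p = 0.00289). Smpdl3a, an LXR-responsive phosphodiesterase, rose in Flox (1.72 ± 0.43 (SE), limma adjusted p = 0.0253) and on average (1.32 ± 0.30, limma adjusted p = 0.00971). On average Pltp, the phospholipid transfer protein, fell (-0.74 ± 0.17 (SE), limma adjusted p = 0.00938), as did Mertk, a receptor for dying cells (-1.75 ± 0.41, limma adjusted p = 0.0118). Npc2, which carries cholesterol out of lysosomes, rose on average (0.72 ± 0.19 (SE), limma adjusted p = 0.0226). The part of the marker shift described with Apoe was not tested for these genes either.

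Of the 4 calls within 1 genotype among these genes, that of Lpl in Flox held whichever 1 of the 12 libraries was left out (limma adjusted p up to 0.0264), and the other 3 were each lost in some such fit. The call of Smpdl3a in Flox was lost without the saline pool 1-3 or any 1 of the carrageenan pools (adjusted p up to 0.0832). For Lpl in cKO it was lost without any 1 of the saline pools or the carrageenan pool 5-8 or 9-12 (up to 0.136), and for Lipa in Flox without the carrageenan pool 4-7 (0.0721). The averaged calls of Lpl, Lipa, Pltp, Smpdl3a and Mertk held whichever 1 of the 12 libraries was left out. Of the other 4 averaged calls, those of Ch25h, Arl4c and Cyp27a1 (log2 fold changes 1.35, 0.69 and -1.19) were lost in 8, 6 and 3 of these 12 fits. That of Npc2 was lost without the Flox carrageenan pool 4-7, the cKO saline pool 1-4 or 9-12, or the cKO carrageenan pool 5-8 (up to 0.0742). Between genotypes 0 of 41 of these genes were called in saline and 0 of 42 in carrageenan.

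In the authors' deposited table of genotype effects none of the 27 genes passed an adjusted p of 0.05 in either treatment. The smallest adjusted p in the authors' deposited table was 0.790 in saline (20 of 27 genes with one) and 0.490 in carrageenan (17 of 27). Mvd had the smallest unadjusted value in the authors' deposited table for carrageenan, 0.0298, and Abca1 that for saline, 0.114.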

How the data were processed

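Cells of 3 or 4 mice were pooled per library, and 3' mRNA libraries with molecular identifiers (Lexogen LUTHOR) were sequenced, per the labels. The submitters' processing notes name cutadapt, STAR and the mouse genome GRCm38, without versions, and no source used here names the read counter. The authors deposited a signal, normalized counts, that is reads scaled by a factor for each library, in separate tables for saline and carrageenan. Their comparison tables hold, per the file headers, a log2 fold change, a test score, a p-value and an adjusted p-value per gene. Whole reads were recovered from the signal (100% of low values whole, tolerance 0.001). Of 55401 gene IDs 55141 had a symbol, and 121 entries that are not genes, with 0.170 to 2.23% of reads, were left out.

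Tests used limma (mean trend) on log2(normalized count + 1), for genes of at least 5 in at least 3 libraries. The added 1 understates changes of low genes, but a library of low depth without reads of a gene can enlarge them. Cyp51 in the Flox saline pool 1-3 is an example. The Benjamini-Hochberg adjustment ran over all genes, with a threshold of 0.05. Genotypes and the difference of effects were fitted on the deposited scale. Treatments were fitted on a common scale over 12 libraries, set by medians of ratios over 6501 genes. R 4.3.3, limma 3.58.1, edgeR 4.0.16 (quasi-likelihood) and DESeq2 1.42.0 were used, the latter 2 on the recovered reads as alternatives, and the fits were tested on simulated data. Values in every library were given for genes past the threshold, besides Fabp5 and Lyz2. Such values were also given for genes with an unadjusted p under 0.05 and groups that did not overlap. At most 4 called genes per further list were given with their SE. The members and lists were chosen with earlier results of these data known. Pool numbers repeat between treatments: deviations of same-numbered cKO pools correlated at 0.200, 0.336 and 0.433. Differently numbered cKO pools correlated at between -0.395 and 0.236, and a replicate block was kept as an alternative. Whether same-numbered pools hold the same mice is not stated. Every pair of libraries within a group differed beyond counting error (chi-square over its degrees of freedom, 2.71 to 16.3).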

Additional observations from a re-analysis of the deposited data

How the results depend on the processing

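The number of the 27 genes called did not change under 13 of 13 alternatives for each genotype comparison (0 in saline and in carrageenan), 21 of 21 for the difference of effects (0) and 20 of 20 for the averaged genotype effect (0). For carrageenan in Flox the count was 0, and 1 with DESeq2 or without both libraries that stand apart, the latter chosen after seeing the data, with a range of 0 to 1 when single libraries were left out. For carrageenan in cKO it was 0, and 1 without both libraries, again with a range of 0 to 1. The gene was Apoe each time. For the averaged treatment effect the count was 1, and 2 with edgeR (Apoe and Mylip), 3 with DESeq2 (Apoe, Mylip and Cyp51), 2 on a per-million scale (Apoe and Mylip) and 0 with no filter on low values, where more genes were tested. It ranged from 0 to 2 when single libraries were left out, and the cause was not tested. The per-million scale moved the median of all genes in that comparison from 0.02 to -0.13. Apoe had an adjusted p between 1.11e-04 and 0.0769 over 22 alternatives, and a log2 fold change between -1.16 and -0.71. Mvd and Srebf1 in carrageenan, Insig1 in Flox and Mylip in cKO kept their sign and stayed short of the threshold under each alternative that gave a value. Over all genes the number called ranged from 350 to 1078 in Flox (734 in the fit reported), from 84 to 915 in cKO (271), from 789 to 1854 on average (1188), from 0 to 23 for genotype in saline (0), from 0 to 420 for genotype in carrageenan (0) and from 0 to 769 for genotype on average (1). With pool numbers as a replicate block the counts were 0 in Flox, 0 in cKO, 0 for the difference of effects and 1 on average. Same-numbered Flox pools correlated at 0.00905, -0.0181 and 0.109, less than the same-numbered cKO pools, and whether the numbers mark the same mice was not given in the sources used here.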
